A study of Danio rerio with 12 samples.

Results

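The genes described here are the integrins, the laminins, the nidogens and the collagens other than type I that were measured in the apex of the adult zebrafish ventricle before and after amputation, with and without 2,3,7,8-tetrachlorodibenzo-p-dioxin (TCDD), an agonist of the aryl hydrocarbon receptor. The rule used the gene symbol, but it was set with earlier results of these data known. Every probe set with 1 gene symbol that starts with itga, itgb, lama, lamb, lamc or col followed by a digit, or with nid, was taken. The genes col1a1a and col1a2 were left out. This gave 31 genes out of 8793 genes with a probe set of their own, represented by 34 of the 15502 probe sets tested. Of the 31 genes, 19 encode collagens, 7 laminins, 4 integrins and 1 a nidogen, and where a gene had more than 1 probe set (3 genes) the one with the highest mean was used.

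Collagens are triple-helical proteins of the extracellular matrix. Fibril-forming collagens build the load-bearing fibres, type VI collagen forms beaded microfilaments beside them, and FACIT collagens (fibril-associated collagens with interrupted triple helices) sit on fibril surfaces. Laminins are heterotrimers of an alpha, a beta and a gamma chain that polymerise into the sheet of the basement membrane, to which nidogen links the collagen network. Integrins are alpha-beta heterodimers in the cell membrane that bind these ligands and fibronectin and connect them to the actin cytoskeleton or, in hemidesmosomes, to keratin filaments. In the zebrafish heart, which replaces an amputated apex with new muscle, matrix is laid down at the wound and later remodelled.

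Fish were adults of the AB strain. They received vehicle or TCDD at 70 ng per g body weight by intraperitoneal injection 1 day before the ventricle was amputated, although the treatment label of the control samples reads none. The ventricle was cut into an upper piece and an apex piece, and the arrays described here are of the apex, which in amputated fish holds the amputation plane and the regenerate. The 6 groups were control and TCDD hearts left unamputated (labelled 0 hours post amputation, hpa), collected at 6 hpa, and collected 7 days post amputation (dpa). Each group had 2 arrays, each made from a pool of 10 hearts. No genotype, transgene or age beyond adult is given. P-values therefore measure the spread between pools, with 2 pools a group. In pieces of whole tissue, fewer cells of a type and less RNA per cell cannot be told apart.

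Values are log2 intensities of Affymetrix probe sets. Differences were tested with limma over all 15502 probe sets, with Benjamini-Hochberg adjustment within each comparison, and a gene is said to have risen or fallen where the adjusted p was below 0.05. The median standard error of a difference between 2 groups was 0.243. A permutation test of 2 arrays against 2 could give no p below 0.333, so no gene was tested in that way.

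The tissue label was checked first. The 3 measured cardiomyocyte markers, actc1a, myl7 and tnnt2a, lay between 11.3 and 13.2 on all 12 arrays, and the 3 measured cartilage and skeletal markers between 2.70 and 4.59. The array TCDD 6 hpa replicate 1 stood apart. Its correlation with the other array of its group was 0.901, against 0.958 to 0.979 in the other 5 groups, and its difference between 3′ and 5′ actin control probes was 3.35 log2 units, against −0.08 to 2.07 on the other 11 arrays. For the integrins, laminins, nidogens and collagens described here, results are therefore also given without it where it changed a call. Calls of the marker genes and of the other gene lists used below are given with all arrays only. Whether those calls depend on this array was not tested. The DapX control probe sets, which detect a bacterial transcript, averaged 4.58 to 5.69 on the 4 arrays of 7 dpa and 2.85 to 3.48 on the other 8. The time after amputation and that difference cannot be told apart, and its part in the results was not tested.

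Of the 31 genes, 8 lay above the array median on all 12 arrays. These were col5a2a, col6a3, col12a1b, col15a1a, col18a1a, lama4, lama5 and itga5. Another 12 did so on some arrays and 11 on none. The last group held col2a1a, col8a1a, col9a1b, col9a2, col9a3, col15a1b, col28a2a, lamb4, lamc3, nid1a and itga2b, whose levels ranged from 2.08 to 3.27. The deposited values carry no detection calls, so it is not known whether these genes were expressed.

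More of the genes were called between 6 hpa and 7 dpa than between 0 and 6 hpa. In control hearts 5 of 31 genes rose over that interval (col5a2a, col6a3, col12a1b, col18a1a and lamb1a) and 1 fell (itga5), where 2.84% and 0.955% of all probe sets did. In TCDD hearts 6 rose (col5a2a, col6a3, col18a1a, lamb1a, col17a1b and itga6b) and 0 fell, against 4.32% and 1.36% of all probe sets over the same interval. At an unadjusted p below 0.05, 11 of the 31 differed in controls and 13 in TCDD hearts, where 14.5% and 22.4% of all probe sets did. From 0 hpa to 7 dpa, 3 genes rose in controls (col5a2a, col6a3 and col18a1a) and 4 in TCDD hearts (col5a2a, col6a3, col17a1b and itga6b), with 1.65% and 1.97% of all probe sets. None fell over that interval by the same test, while 0.348% of all probe sets fell in controls and 0.400% in TCDD hearts. At an unadjusted p below 0.05, 8 genes differed in controls and 10 in TCDD hearts, where 12.5% and 12.6% of all probe sets did.

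At 6 hpa few genes differed from unamputated hearts. In controls 1 gene fell, lamb1a, and 0 rose, where 0.316% and 0.161% of all probe sets did. In TCDD hearts 0 of 31 rose or fell, against 0.464% and 1.41% of all probe sets, and 3 had an unadjusted p below 0.05, as did 17.2% of all probe sets. The median difference of the 31 genes from 6 hpa to 7 dpa was 0.11 log2 units in controls and 0.20 in TCDD hearts, where the medians of all probe sets were −0.04 and −0.04.

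**Figure D1:**
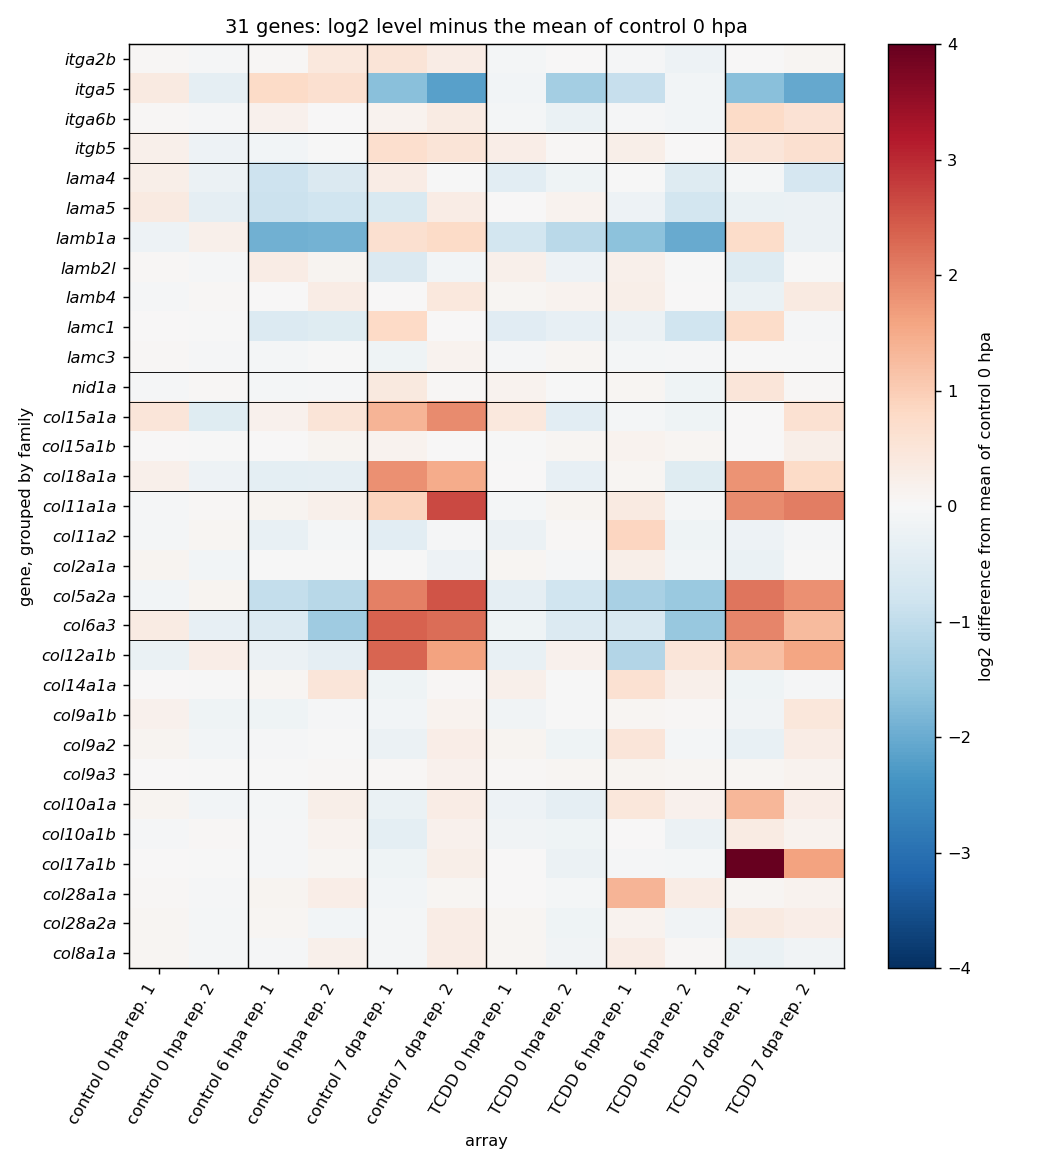
Each row is 1 of the 31 genes, grouped by family, and each column 1 of the 12 arrays. The colour gives the log2 level minus the mean of the 2 control 0 hpa arrays, red above and blue below, with col5a2a, col6a3, col12a1b and col18a1a red at 7 dpa in both treatments, lamb1a blue at 6 hpa, itga5 blue at 7 dpa and col17a1b red on the 2 TCDD 7 dpa arrays.

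Among the fibril-forming collagens, col5a2a, the alpha 2 chain of type V collagen, which starts and limits the thickness of type I fibrils, had the smallest adjusted p of the 31 genes in each comparison of 7 dpa with an earlier time. In controls its level was 6.01 and 6.21 at 0 hpa, 5.15 and 5.02 at 6 hpa, and 8.14 and 8.64 at 7 dpa. Its levels in TCDD hearts were 5.74 and 5.32, then 4.83 and 4.62, then 8.26 and 7.94. In both treatments the 2 arrays of 7 dpa lay above all earlier ones and the 2 of 6 hpa below those of 0 hpa. The level rose from 6 hpa to 7 dpa 9.88-fold in controls, a log2 difference of 3.31 ± 0.23 (SE; adjusted p = 0.000165), and 10.4-fold in TCDD hearts, a log2 difference of 3.38 ± 0.23 (adjusted p = 0.000124). Against 0 hpa it rose by 2.28 ± 0.23 log2 units in controls (adjusted p = 0.00222) and by 2.57 ± 0.23 in TCDD hearts (adjusted p = 0.00096). The lower values at 6 hpa did not pass the test, with differences of −1.03 in controls (adjusted p = 0.116) and −0.81 in TCDD hearts (adjusted p = 0.116). These 4 calls were kept in each of the 19 alternative settings, in 12 of which 1 array was left out. A second, dim probe set of col5a2a gave differences from 6 hpa to 7 dpa of 0.51 in controls and 0.55 in TCDD hearts, in the same direction, with adjusted p = 0.314 and 0.176.

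Of the other fibril-forming chains, col11a1a had the highest mean level, 3.44 against 3.40 for col11a2. It is the alpha 1 chain of type XI collagen, which is known mainly from cartilage and copolymerises with type II. It lay between 2.67 and 3.13 on the 8 arrays of 0 and 6 hpa. At 7 dpa it was 3.66 and 5.42 in controls and 4.65 and 4.80 in TCDD hearts, so that the arrays of 7 dpa lay above the others and the 2 control pools were far apart. Its differences from 0 hpa, 1.77 ± 0.46 in controls (adjusted p = 0.102) and 1.94 ± 0.46 in TCDD hearts (adjusted p = 0.0696), did not pass the test. Without the lower control array, 7 dpa replicate 1, the difference in controls was 2.65. Without either control array of 7 dpa the difference in TCDD hearts stayed at 1.94. Such a fit leaves the wide spread between these 2 control arrays out of its estimate, so its p cannot decide the question. The cartilage chains col2a1a, col11a2, col9a1b, col9a2 and col9a3 did not pass in any of the 6 comparisons over time.

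col6a3, a chain of type VI collagen, followed a course like that of col5a2a. Its level in controls was 5.21 and 4.54 at 0 hpa, 4.32 and 3.46 at 6 hpa, and 7.23 and 7.11 at 7 dpa. The TCDD arrays gave 4.72 and 4.32, then 4.23 and 3.36, then 6.82 and 6.16. The arrays of 7 dpa did not overlap with the earlier ones in either treatment. Between 6 hpa and 7 dpa it rose by 3.28 ± 0.40 log2 units in controls (adjusted p = 0.00322) and by 2.70 ± 0.40 in TCDD hearts (adjusted p = 0.00667). Against 0 hpa it rose by 2.29 ± 0.40 in controls (adjusted p = 0.0255) and by 1.97 ± 0.40 in TCDD hearts (adjusted p = 0.0434). The rise from 6 hpa in controls passed the test whichever of the 12 arrays was left out. The rise from 0 hpa in controls lost its call on leaving out any 1 of the 4 arrays compared, with adjusted p between 0.077 and 0.21, and that in TCDD hearts on leaving out any 1 of 8 arrays, with adjusted p up to 0.243, and with quantile normalization (adjusted p = 0.0536) or median centring (adjusted p = 0.0644). In TCDD hearts the rise from 6 hpa lost its call without 7 dpa replicate 1 (adjusted p = 0.0694).

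col12a1b, a FACIT collagen chain of type XII that binds the surface of type I fibrils, lay at 4.49 and 5.04 in controls at 0 hpa, at 4.53 and 4.41 at 6 hpa and at 7.09 and 6.37 at 7 dpa. The TCDD levels were 4.47 and 4.93, then 3.59 and 5.25, then 5.96 and 6.36. The low value of 3.59 came from TCDD 6 hpa replicate 1, the array that stood apart. col12a1b rose 4.79-fold from 6 hpa to 7 dpa in controls, a log2 difference of 2.26 ± 0.49 (adjusted p = 0.0408). This call was lost on leaving out any 1 of 10 arrays, with adjusted p up to 0.224, and with quantile normalization or median centring. The differences from 0 hpa to 7 dpa, 1.96 ± 0.49 in controls (adjusted p = 0.0964) and 1.46 ± 0.49 in TCDD hearts (adjusted p = 0.216), passed the test without either of the 2 TCDD 6 hpa arrays, with adjusted p = 0.0117 and 0.0344. Of the other FACIT chains, col14a1a lay between 2.89 and 3.68 and was not called.

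**Figure D2:**
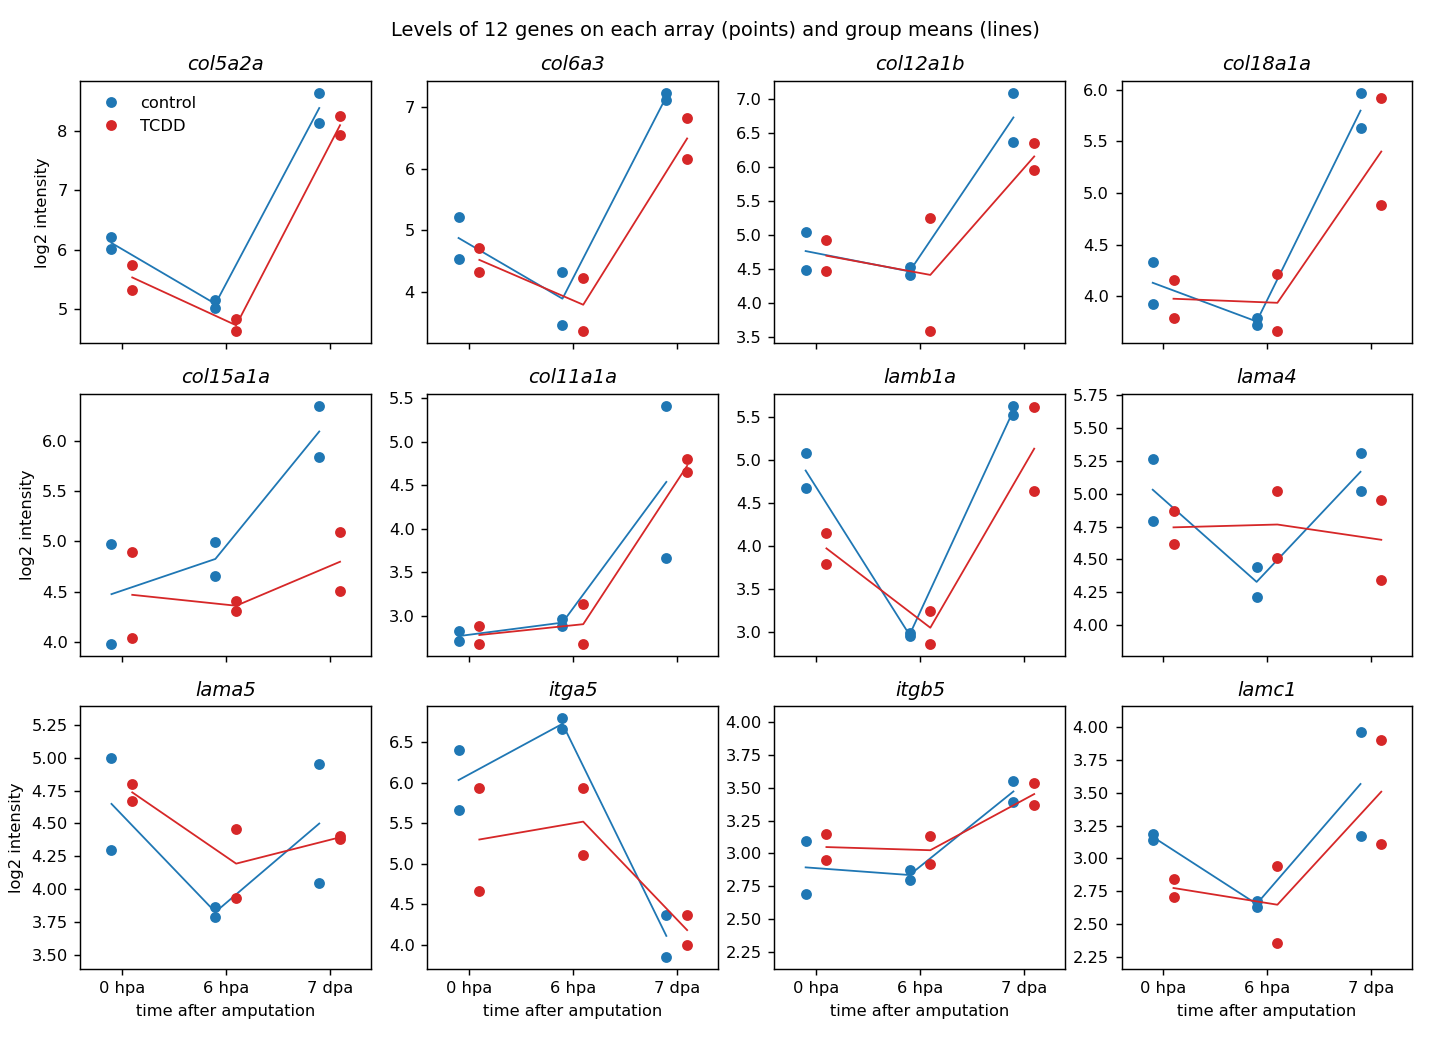
Log2 intensity of 12 genes (vertical axes, each at least 2 log2 units tall) against time after amputation, with control arrays in blue, TCDD arrays in red, 1 point per array and lines through the group means. col5a2a, col6a3, col12a1b and col18a1a are highest at 7 dpa in both treatments, lamb1a dips at 6 hpa, and itga5 is lowest at 7 dpa.

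Collagens XV and XVIII are the multiplexin collagens of basement membrane zones, and endostatin is the C-terminal fragment of type XVIII. No probe set of a type IV collagen chain was among the 31. col18a1a lay at 4.33 and 3.93 in controls at 0 hpa, at 3.73 and 3.79 at 6 hpa and at 5.97 and 5.62 at 7 dpa. With TCDD it was 4.16 and 3.79, then 4.21 and 3.66, then 5.92 and 4.88. All 4 arrays of 7 dpa lay above the other 8. col18a1a rose from 6 hpa to 7 dpa by 2.04 ± 0.35 log2 units in controls (adjusted p = 0.0149) and by 1.46 ± 0.35 in TCDD hearts (adjusted p = 0.0437). Against 0 hpa it rose by 1.67 ± 0.35 in controls (adjusted p = 0.0499), whereas the difference in TCDD hearts, 1.42 ± 0.35, did not pass (adjusted p = 0.0798). These calls lay close to the threshold. The rise from 0 hpa was lost on leaving out any 1 of 8 arrays (adjusted p up to 0.318), that from 6 hpa in TCDD hearts on leaving out any 1 of 11 (adjusted p up to 0.241), and that from 6 hpa in controls without either control 6 hpa array or without control 7 dpa replicate 1 (adjusted p up to 0.0939). Median centring ended the call from 0 hpa in controls (adjusted p = 0.0812), and array weights that from 6 hpa in TCDD hearts (adjusted p = 0.146). In the annotation col18a1a and col5a2a both lie on chromosome 9, at a distance of 7 coding genes in order.

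col15a1a showed one of the larger differences between treatments among the 31 genes. It lay at 4.97 and 3.98 in controls at 0 hpa, at 4.66 and 5.0 at 6 hpa and at 5.84 and 6.35 at 7 dpa. In TCDD hearts it was 4.89 and 4.04, then 4.41 and 4.31, then 4.51 and 5.09. The control arrays of 7 dpa lay above the other 10, and the TCDD arrays of 7 dpa overlapped with those of 0 hpa. Neither the difference from 0 hpa to 7 dpa in controls, 1.62 ± 0.39 (adjusted p = 0.0859), nor that in TCDD hearts, 0.33 ± 0.39 (adjusted p = 0.911), passed the test. At 7 dpa TCDD hearts lay 1.30 log2 units below controls, a difference of −1.30 with a 95% interval from −2.19 to −0.40 (unadjusted p = 0.00954, adjusted p = 0.66). The test of the difference between the 2 treatments' responses gave −1.29, with an interval from −2.55 to −0.03 (adjusted p = 1). Its paralog col15a1b lay between 2.36 and 2.62 on all arrays and was not called.

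Laminin lamb1a, a beta 1 chain found in most basement membrane laminins, was the 1 laminin called in any comparison. In controls it lay at 4.67 and 5.09 at 0 hpa, at 2.95 and 2.99 at 6 hpa and at 5.52 and 5.63 at 7 dpa. In TCDD hearts it was 4.15 and 3.80, then 3.24 and 2.86, then 5.62 and 4.64. In both treatments the arrays of 6 hpa were below those of 0 hpa and those of 7 dpa above, and at 0 hpa both TCDD arrays lay below both control arrays. By 6 hpa lamb1a fell 3.76-fold in controls, a log2 difference of −1.91 ± 0.31 (adjusted p = 0.0441), while the difference in TCDD hearts, −0.92 ± 0.31, did not pass (adjusted p = 0.175). The test of the difference between those 2 responses gave 0.99 ± 0.44 (adjusted p = 1). The fall in controls was lost on leaving out any 1 of 8 arrays, with adjusted p up to 0.27, and with the replicate number as a block (adjusted p = 0.0533) or median centring (adjusted p = 0.0699).

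lamb1a rose from 6 hpa to 7 dpa by 2.61 ± 0.31 log2 units in controls (adjusted p = 0.00286) and by 2.08 ± 0.31 in TCDD hearts (adjusted p = 0.00675), and both calls were kept in each of the 19 alternative settings. At 0 hpa the TCDD arrays lay 0.90 log2 units lower, a difference of −0.90 with an interval from −1.61 to −0.20 (unadjusted p = 0.0176, adjusted p = 1). Its neighbour in the annotation, lamb4, with no coding gene between them, lay between 2.44 and 3.13 and was not called.

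The alpha chains lama4, known from vessel walls and muscle, and lama5, known from epithelial and vascular basement membranes, were above the array median throughout. lama4 lay at 5.27 and 4.79 in controls at 0 hpa, at 4.21 and 4.44 at 6 hpa and at 5.31 and 5.02 at 7 dpa, and between 4.34 and 5.02 on the 6 TCDD arrays. The control arrays of 6 hpa were the lowest of the controls, by −0.70 ± 0.28 log2 units from 0 hpa, without passing the test (adjusted p = 0.409). A second, dim probe set of lama4 did not show this lower level at 6 hpa. On it the control arrays lay at 3.02 and 3.18 at 0 hpa and at 2.90 and 3.37 at 6 hpa. Its lowest control arrays were those of 7 dpa, at 2.75 and 2.88. lama5 ranged from 3.78 to 5.0 and its difference from 0 to 6 hpa in controls was −0.82 ± 0.33 (adjusted p = 0.414). The gamma chain lamc1, a partner of lamb1a in many laminin trimers, lay at 3.18 and 3.14, then 2.63 and 2.67, then 3.96 and 3.17 in controls. Its differences from 6 hpa to 7 dpa, 0.91 ± 0.33 in controls (adjusted p = 0.218) and 0.86 ± 0.33 in TCDD hearts (adjusted p = 0.168), did not pass. lamb2l, lamc3 and the nidogen nid1a were not called in any comparison, and nid1a lay between 2.08 and 2.74.

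Among the receptors, itga5, the alpha chain of the fibronectin receptor, fell while the collagens above rose. In controls it lay at 6.41 and 5.66 at 0 hpa, at 6.80 and 6.66 at 6 hpa and at 4.37 and 3.85 at 7 dpa. In TCDD hearts it was 5.94 and 4.67, then 5.11 and 5.94, then 4.37 and 4.0. All 4 arrays of 7 dpa lay below the other 8, and at 6 hpa both TCDD arrays lay below both control arrays. itga5 fell from 6 hpa to 7 dpa 6.13-fold in controls, a log2 difference of −2.62 ± 0.45 (adjusted p = 0.0159), while the difference in TCDD hearts, −1.34 ± 0.45, did not pass (adjusted p = 0.128). The fall was lost without either control 6 hpa array or without control 7 dpa replicate 2, with adjusted p up to 0.0992. The 2 treatments were not shown to differ in this course: the difference between them was 1.28, with an interval from −0.16 to 2.72 (adjusted p = 0.998), in a comparison added after the data were seen. At 6 hpa TCDD hearts lay at −1.21 against controls, with an interval from −2.23 to −0.19 (unadjusted p = 0.0254, adjusted p = 1).

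itgb5, a beta chain that pairs with the alpha V chain to bind vitronectin, lay between 2.69 and 3.14 on the 8 arrays of 0 and 6 hpa and between 3.37 and 3.55 on the 4 of 7 dpa. The arrays of 7 dpa did not overlap with the others, yet the differences from 6 hpa, 0.64 ± 0.19 in controls (adjusted p = 0.119) and 0.43 ± 0.19 in TCDD hearts (adjusted p = 0.217), did not pass. itga2b, the alpha chain of the thrombocyte fibrinogen receptor, lay between 2.50 and 3.21 and was not called.

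**Figure D3:**
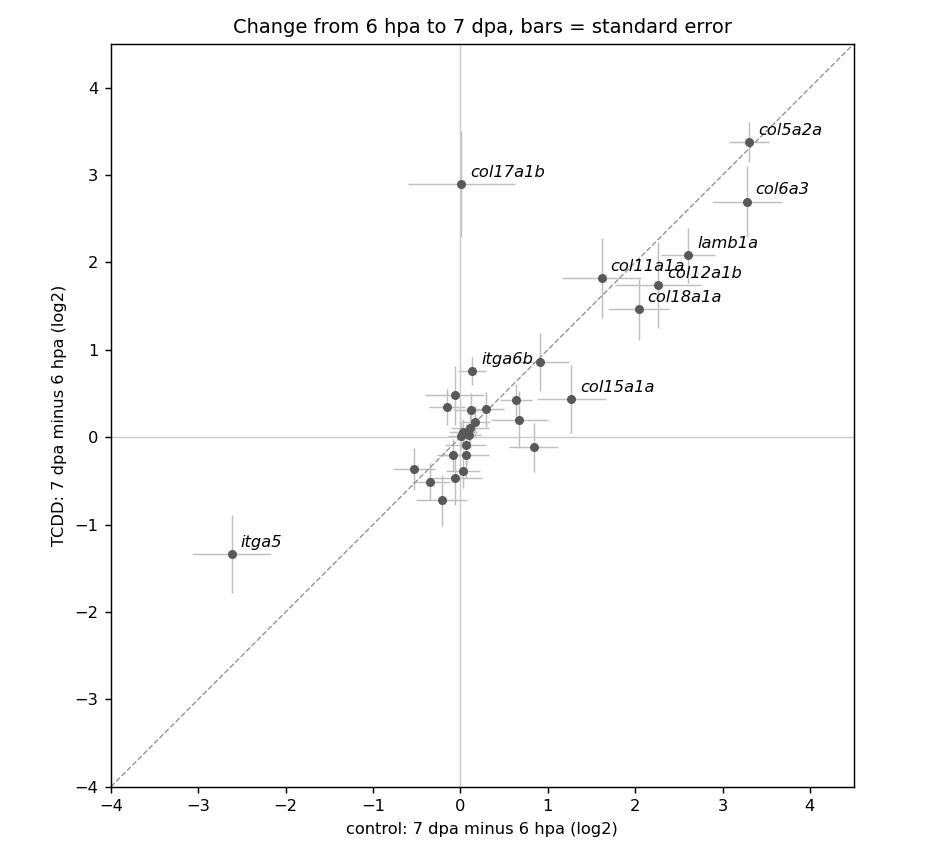
Log2 difference from 6 hpa to 7 dpa in control hearts (horizontal axis) and TCDD hearts (vertical axis) for the 31 genes, with standard errors as bars and the line of equal difference dashed. col5a2a, col6a3, lamb1a, col12a1b, col18a1a and col11a1a lie near the line, itga5 is negative on both axes, and col17a1b is at 0.01 in controls and 2.90 in TCDD hearts.

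The courses of the 2 treatments share no array and can be set side by side. From 6 hpa to 7 dpa 25 of the 31 genes had the same sign in both, where 74.1% of all probe sets did, and Pearson's r across the 31 genes was 0.817, against 0.762 across all probe sets. From 0 hpa to 7 dpa 26 of 31 had the same sign, where 71.2% of all did, and r was 0.721, against 0.775. From 0 to 6 hpa 23 of 31 had the same sign, where 74.1% of all did, and r was 0.765, against 0.786. These genes are not independent of each other, and the numbers are a description.

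At a given time TCDD and control hearts were not called different for any of the 31 genes by limma. Of all probe sets 0.0258% were called at 0 hpa, 0.0129% at 6 hpa and 0.116% at 7 dpa. At an unadjusted p below 0.05 the counts among the 31 were 2, 1 and 4, where 1.45%, 2.72% and 3.97% of all probe sets passed. The tests of whether the response to amputation differed between treatments called 0 of 31 at 6 hpa and 0 at 7 dpa (0 and 3 at an unadjusted p below 0.05, where 1.14% and 2.01% of all probe sets passed), with 0.00645% of all probe sets at each time. The test of the course from 6 hpa to 7 dpa called 0 of 31 (3 at an unadjusted p below 0.05, where 3.64% of all probe sets passed), with 0.0129% of all probe sets. For the 5 collagen and laminin genes that rose from 6 hpa to 7 dpa in controls, of which col12a1b was not called in TCDD hearts, the intervals at 7 dpa were wide: the difference between TCDD and control was −0.29 for col5a2a (95% interval −0.81 to 0.23), −0.68 for col6a3 (−1.59 to 0.23), −0.40 for col18a1a (−1.18 to 0.39), −0.57 for col12a1b (−1.68 to 0.54) and −0.44 for lamb1a (−1.15 to 0.26). A p that misses the threshold does not show that these levels were equal.

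**Figure D4:**
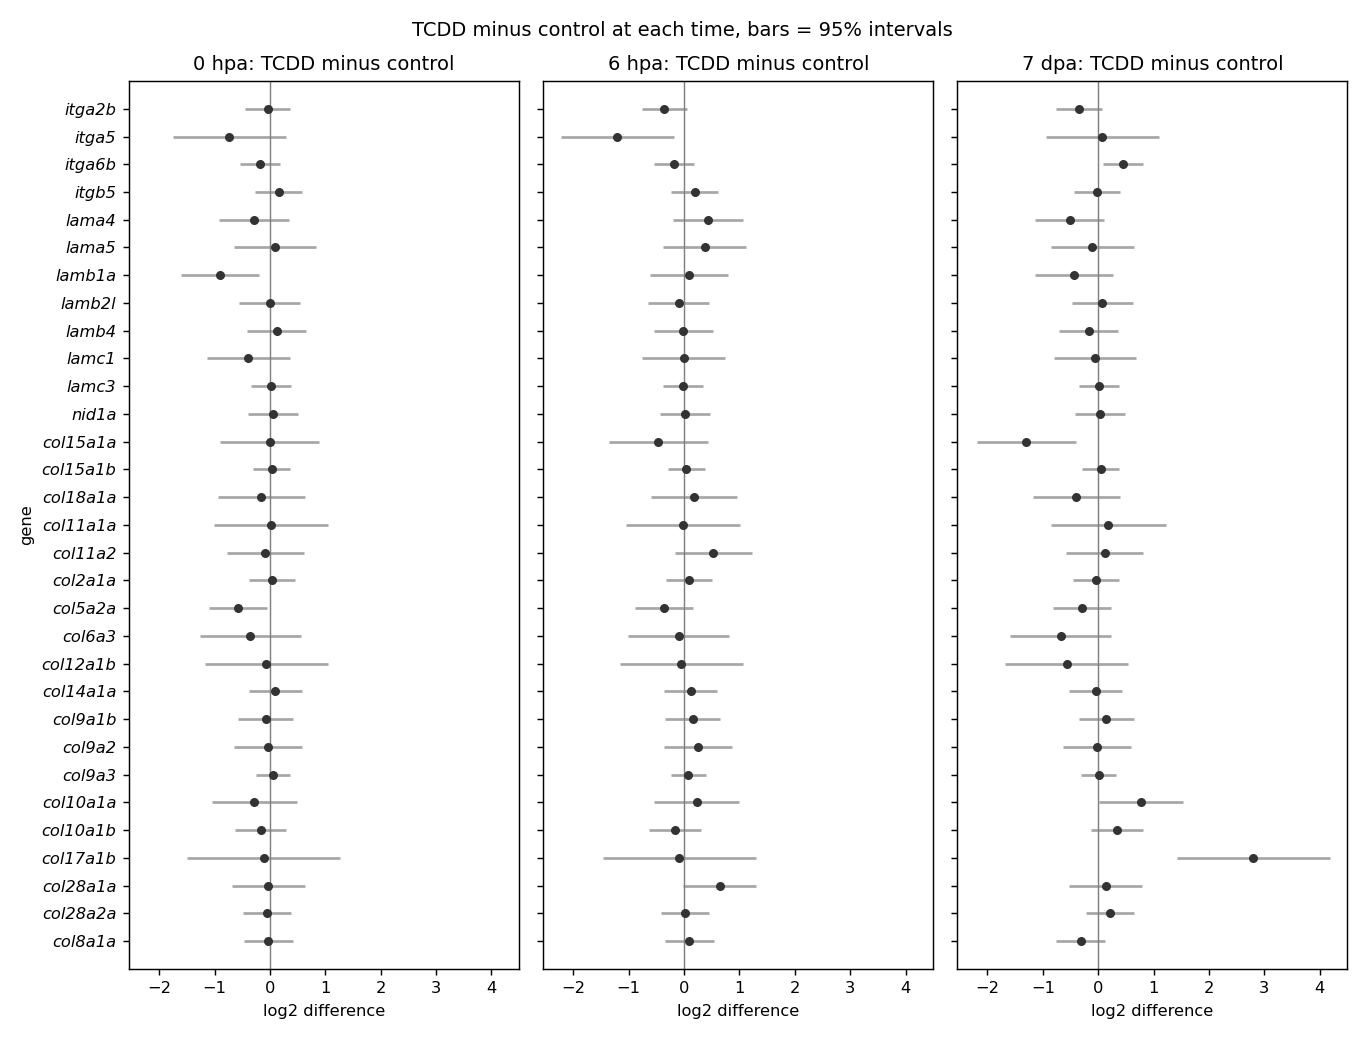
Log2 difference of TCDD minus control (horizontal axes) for the 31 genes at 0 hpa, 6 hpa and 7 dpa, with 95% intervals as bars. At 7 dpa the intervals of col17a1b and itga6b, among others, exclude 0 from above, and that of col15a1a lies below 0. By limma 4 of the 31 had an unadjusted p below 0.05 at 7 dpa, and none passed after adjustment over all probe sets.

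The largest difference between treatments was that of col17a1b, a chain of the transmembrane collagen XVII, which with the integrin alpha 6 beta 4 anchors basal epithelial cells at hemidesmosomes. It lay between 2.32 and 2.80 on 10 arrays and at 6.63 and 4.17 on the 2 TCDD arrays of 7 dpa, which were also the 2 that differed most from each other. A second probe set of the gene lay at 4.81 and 3.98 on those arrays and between 2.52 and 2.84 on the others. In TCDD hearts col17a1b rose by 2.94 ± 0.61 log2 units from 0 hpa (adjusted p = 0.0448) and by 2.90 ± 0.61 from 6 hpa (adjusted p = 0.0286), and the second probe set by 1.79 ± 0.25 (adjusted p = 0.00851) and 1.70 ± 0.25 (adjusted p = 0.00672). In controls the 2 differences were 0.03 (adjusted p = 1) and 0.01 (adjusted p = 0.997).

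At 7 dpa TCDD hearts lay above controls by 2.80 log2 units on the first probe set, with a 95% interval from 1.42 to 4.18 (adjusted p = 0.228), and by 1.72 on the second (adjusted p = 0.0604). Without TCDD 7 dpa replicate 2, the lower of the pair, the difference was 4.03 (adjusted p = 0.00126), with the lone array assumed to vary like the other groups. The rise from 0 hpa was lost on leaving out any 1 of 8 arrays (adjusted p up to 0.233), and that from 6 hpa on leaving out any 1 of 5 (adjusted p up to 0.0924), among them TCDD 6 hpa replicate 1. The rise from 0 hpa was also lost with the replicate number as a block (adjusted p = 0.0513) and with median centring (adjusted p = 0.082), and that from 6 hpa with array weights (adjusted p = 0.0962). Among the collagens outside the families above, col10a1a had the highest mean level, 3.24, and was not called. It lay at 4.41 and 3.34 in TCDD hearts at 7 dpa and at 2.82 and 3.38 in controls. On the arrays of 0 and 6 hpa it lay between 2.73 and 3.54. Without TCDD 7 dpa replicate 2 its difference from 0 hpa in TCDD hearts was 1.61.

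itga6b, an integrin alpha 6 chain that binds laminin, lay at 2.45 and 2.25 in TCDD hearts at 0 hpa, at 2.49 and 2.41 at 6 hpa and at 3.30 and 3.11 at 7 dpa, and between 2.49 and 2.85 on the 6 control arrays. The 2 TCDD arrays of 7 dpa were above the other 10. These levels were low: itga6b lay above the array median on 1 of the 12 arrays, and the deposited values carry no detection calls. It rose by 0.86 ± 0.16 log2 units from 0 hpa (adjusted p = 0.0282) and by 0.76 ± 0.16 from 6 hpa (adjusted p = 0.0279) in TCDD hearts, and its differences in controls were 0.23 (adjusted p = 0.722) and 0.14 (adjusted p = 0.808). At 7 dpa the difference between treatments was 0.44, with an interval from 0.09 to 0.80 (adjusted p = 0.925). Its rise from 0 hpa was lost on leaving out any 1 of 8 arrays (adjusted p up to 0.202) and that from 6 hpa on leaving out any 1 of 5 (adjusted p up to 0.175), TCDD 6 hpa replicate 1 among them, or with array weights (adjusted p = 0.124).

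Markers of epidermis moved with these genes. All 12 listed markers were measured. This list, like the others used here, was chosen with earlier results of these data known, so its counts are a description. In TCDD hearts 6 of 12 rose from 0 hpa to 7 dpa, where 1.97% of all probe sets rose. The median over the list was 2.95 log2 units. In controls 1 of 12, krt4, rose, where 1.65% of all probe sets did, with a median of 0.86. The summed intensity of the 12 was 6254 and 6756 on the 2 TCDD arrays of 7 dpa, 2813 to 4182 on the control arrays of 7 dpa, and 294 to 1515 on the other 8 arrays. The brightest markers weigh most in this linear sum. On control 7 dpa replicate 1, with a sum of 2813, icn lay at 11.16 and krt4 at 8.79, but epcam at 2.55 and krt97 at 2.44. Between treatments at 7 dpa 0 of 12 passed limma's test, where 0.116% of all probe sets did. At an unadjusted p below 0.05 there were 9, where 3.97% of all probe sets passed. krt5, a basal keratin, lay at 10.62 and 10.47 in TCDD hearts at 7 dpa and at 2.67 and 9.60 in controls. The control pools of 7 dpa thus differed widely, and col17a1b was 2.40 and 2.80 in the same 2 pools. Some markers were dim: tp63, a regulator of basal epidermis, lay between 3.05 and 4.04 on all arrays, and evpla between 2.15 and 3.11. Without detection calls it is not known whether such markers were expressed. The part of these cells in the levels of col17a1b and itga6b was not tested.

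**Figure D5:**
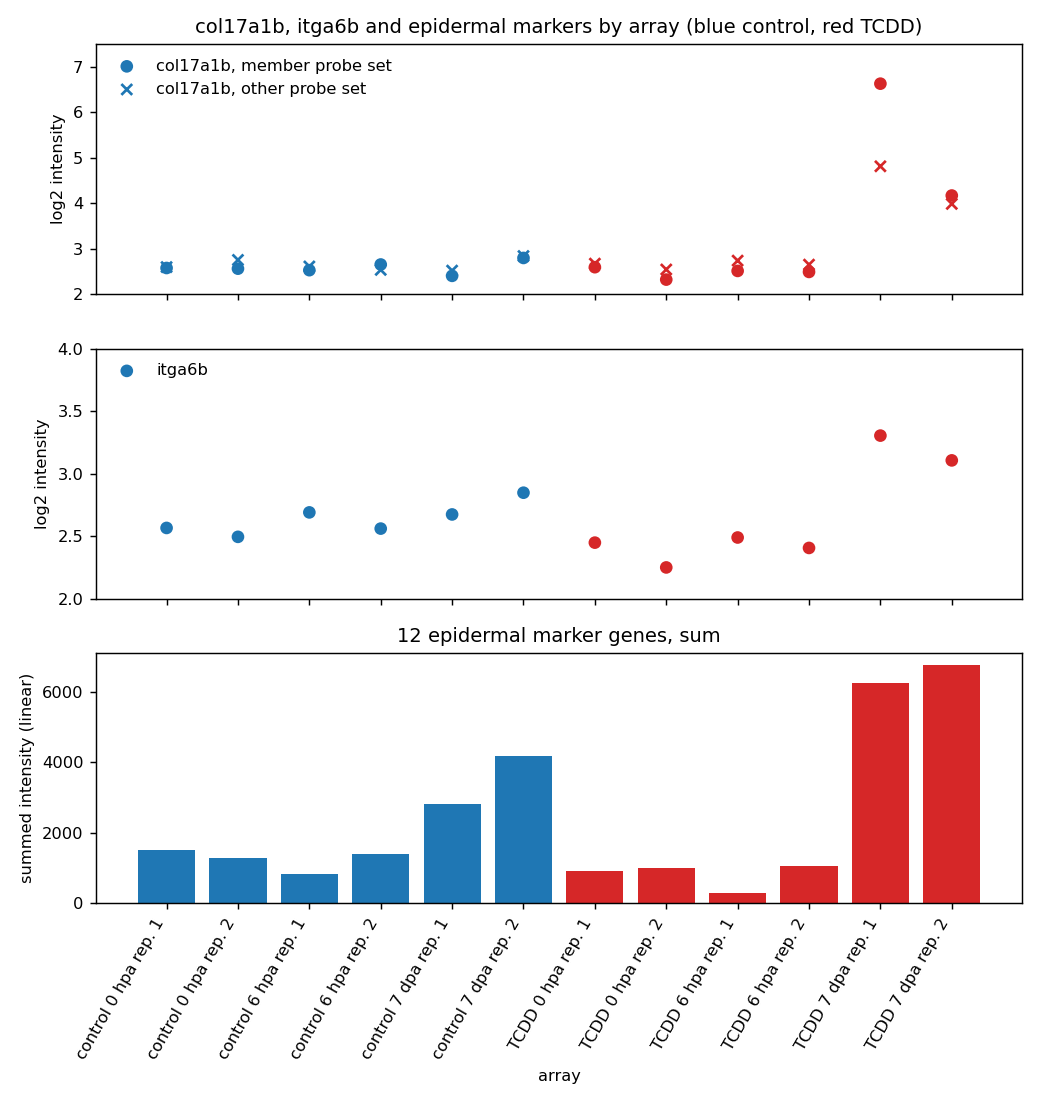
Log2 intensity of col17a1b (top, 2 probe sets), log2 intensity of itga6b (middle) and the summed linear intensity of 12 epidermal marker genes (bottom) on each of the 12 arrays, control in blue and TCDD in red. The 2 TCDD 7 dpa arrays are highest in all 3 panels, and the marker sum is 2813 and 4182 on the control 7 dpa arrays, on which col17a1b is low. The marker icn, the brightest of the 12 on each array, weighs most in that sum.

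Markers of other cell types also changed over time, some in the direction of the collagens and lamb1a and some not. Of the 3 measured fibroblast markers 1 fell by 6 hpa in each treatment. Of all probe sets 0.316% fell in controls and 1.41% in TCDD hearts. This marker was dcn, which encodes the collagen-binding proteoglycan decorin. Its log2 difference was −1.86 in controls (adjusted p = 0.0197) and −1.64 in TCDD hearts (adjusted p = 0.0164). From 6 hpa to 7 dpa dcn rose by 4.16 in controls and 4.20 in TCDD hearts. Over that interval 1 of the 3 rose in controls and 2 in TCDD hearts, where 2.84% and 4.32% of all probe sets rose. The marker fbln1 lay between 2.98 and 3.34 on all arrays and was not called. The summed intensity of the 3 was 130 to 154 in controls at 0 hpa, 48.2 to 75.8 at 6 hpa and 514 to 602 at 7 dpa, and in TCDD hearts 104 to 134, then 43.5 to 44.9, then 477 to 498. At 7 dpa dcn, the brightest of the 3, weighs most in this linear sum. Of the 2 measured smooth muscle markers 1, tagln, rose from 6 hpa to 7 dpa, by 4.88 in controls and 4.02 in TCDD hearts. Over that interval 2.84% and 4.32% of all probe sets rose. The sum of the 2 markers in controls was 154 and 789 at 0 hpa, 75.3 to 82.8 at 6 hpa and 1009 to 1093 at 7 dpa. In TCDD hearts it was 90.1 to 107, then 56.8 to 56.9, then 387 to 498, so that TCDD arrays were already the lower at 0 hpa. Of 9 leukocyte markers, 3 rose from 0 hpa to 7 dpa in controls (lcp1, marco and ptprc), where 1.65% of all probe sets did. In TCDD hearts 0 of 9 rose, against 1.97% of all probe sets. There 4 had an unadjusted p below 0.05, as did 12.6% of all probe sets. Of 4 endothelial markers 1, erg, fell by 6 hpa in controls (log2 difference −1.52, adjusted p = 0.0393) and 0 in TCDD hearts. By then 0.316% and 1.41% of all probe sets had fallen. The sum of the 4 markers was 290.0 to 369 at 0 hpa, 173 to 178 at 6 hpa and 127 to 187 at 7 dpa in controls. In TCDD hearts it was 238 to 264, then 70.1 to 143, then 103 to 193. Of 4 erythrocyte markers, 0 passed at 6 hpa in controls, where 0.161% of all probe sets rose. All 4 had an unadjusted p below 0.05 (median 2.43), as did 10.2% of all probe sets. In TCDD hearts 3 rose (median 3.04), against 0.464% of all probe sets. From 6 hpa to 7 dpa 1 of these 4 markers fell in controls and 2 in TCDD hearts. Of all probe sets 0.955% and 1.36% fell over that interval. Their sum was 6875 to 8290 at 0 hpa, 11171 to 14422 at 6 hpa and 6767 to 8545 at 7 dpa in controls, and 5823 to 6198, then 11605 to 14338, then 6567 to 7472 in TCDD hearts. The brightest of these 4, hbaa1, weighs most in this sum. The 3 cardiomyocyte markers were not called, with summed intensities of 22146 to 23272 at 0 hpa and 14808 to 17957 at 7 dpa over both treatments. Of 3 measured epicardial markers 0 were called in any comparison. Of 2 measured thrombocyte markers, f13a1b rose from 0 hpa to 7 dpa in controls by 1.66 (adjusted p = 0.00415). There 1.65% of all probe sets rose. At 7 dpa its difference between TCDD and control was −1.45 (adjusted p = 0.04), where 0.116% of all probe sets were called. The other, gp1bb, rose by 2.56 from 0 to 6 hpa in TCDD hearts (adjusted p = 0.0232), against 0.464% of all probe sets. The part of these cells in the levels of the collagens, lamb1a and itga5 was not tested.

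Genes that act on collagen after translation were followed in a list of 42, of which 15 were measured. From 6 hpa to 7 dpa 9 of 15 rose in controls and 9 of 15 in TCDD hearts, and 0 fell. Over that interval 2.84% and 4.32% of all probe sets rose, and 0.955% and 1.36% fell. The medians of the 15 were 1.61 and 1.20 log2 units. Those that rose in controls included loxa, a lysyl oxidase that crosslinks collagen, by 2.26 ± 0.18 (adjusted p = 0.000267), serpinh1b, the collagen chaperone Hsp47, by 1.61 ± 0.30 (adjusted p = 0.0215), and pcolcea, an enhancer of procollagen C-proteinase, by 3.77 ± 0.34 (adjusted p = 0.000599). In TCDD hearts the same 3 rose by 1.20 ± 0.18 (adjusted p = 0.00643), 1.93 ± 0.30 (adjusted p = 0.00793) and 2.37 ± 0.34 (adjusted p = 0.00538). From 0 hpa to 7 dpa 5 of 15 rose in each treatment, where 1.65% of all probe sets rose in controls and 1.97% in TCDD hearts. At 6 hpa 1 fell in controls, pcolcea by 2.07 ± 0.34 log2 units (adjusted p = 0.0441), and 1 in TCDD hearts, crtap, a member of the prolyl 3-hydroxylation complex, by 1.12 ± 0.22 (adjusted p = 0.0445). In controls the difference of crtap was −1.26 ± 0.22, without passing (adjusted p = 0.0532). The mean of pcolcea in TCDD hearts was 5.27 at 0 hpa and 3.87 at 6 hpa. Of all probe sets 0.316% fell by 6 hpa in controls and 1.41% in TCDD hearts. None of the 15 was called between treatments at 7 dpa by limma, where 0.116% of all probe sets were. At an unadjusted p below 0.05 there were 4, where 3.97% of all probe sets passed.

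A list of other basement membrane components and of proteins that couple integrins to the cytoskeleton was followed as well. Of 22 measured out of 49 listed, 2 rose from 6 hpa to 7 dpa in controls and 3 in TCDD hearts, and 0 fell. Of all probe sets 2.84% and 4.32% rose over that interval, and 0.955% and 1.36% fell. The 2 that rose in both were sparc, a collagen-binding matricellular protein, by 4.21 ± 0.33 in controls (adjusted p = 0.000281) and 4.90 ± 0.33 in TCDD hearts (adjusted p = 0.000124), and cd9b, a tetraspanin that associates with integrins, by 1.42 ± 0.18 (adjusted p = 0.00389) and 2.37 ± 0.18 (adjusted p = 0.000227). The third in TCDD hearts was pxna, a paxillin of focal adhesions, by 1.55 ± 0.35 (adjusted p = 0.0363). At 6 hpa sparc fell by 2.29 log2 units and tns1b, a tensin, by 1.89 in TCDD hearts (adjusted p = 0.0222 and 0.0443). There 1.41% of all probe sets fell. In controls 0 of 22 passed limma's test, where 0.161% of all probe sets rose and 0.316% fell. The control differences were −1.93 for sparc (adjusted p = 0.0513) and −1.48 for tns1b (adjusted p = 0.155). At an unadjusted p below 0.05 there were 7 in controls, where 10.2% of all probe sets passed.

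Leaving out TCDD 6 hpa replicate 1, which stood apart, changed the share of all probe sets called in either direction to 1.99% from 0 to 6 hpa in controls, 4.04% from 0 hpa to 7 dpa in controls, 4.41% from 0 hpa to 7 dpa in TCDD hearts and 3.57% from 6 hpa to 7 dpa in TCDD hearts. In controls lamb1a was then again the 1 gene called from 0 to 6 hpa. From 0 hpa to 7 dpa in controls 4 genes rose, with col12a1b added, and itga5 fell (difference −1.92, adjusted p = 0.0436). In TCDD hearts 5 rose from 0 hpa to 7 dpa, with col12a1b added, and 3 rose from 6 hpa (col5a2a, col6a3 and lamb1a). Without the other array of that group, TCDD 6 hpa replicate 2, the 6 hpa levels in TCDD hearts rested on the array that stood apart. The differences from 0 hpa were then 0.94 for col11a2 and 1.40 for col28a1a. Their levels were 4.31 and 4.21 on the array that stood apart, against 3.28 and 3.14 on the array left out.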

How the data were processed

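RNA of pooled ventricle apexes was hybridised to Affymetrix arrays, 12 in all. The deposited series table holds 1 linear intensity per probe set and array; the submitters' processing notes name RMA (robust multi-array average), with tool version and genome build not given in the sources used here. Here log2 was taken of these values, the authors' normalization was kept, and 115 control probe sets of 15617 were left out, leaving 15502. Probe sets were named from the platform annotation: 10795 had 1 symbol, 135 several and 4572 none. All 31 members were found in RefSeq by the Entrez gene identifier of the platform annotation. The other deposited tables were not used here.

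limma 3.58.1 in R 4.3.3 was fitted with 6 group means over all 12 arrays (6 residual and 2.87 prior degrees of freedom). Intervals are 95%. There were 12 comparisons, of which the difference between treatments from 6 hpa to 7 dpa was added after the data were seen. Named members were those called without overlap of their groups, the 2 brightest of each family, and a list of well-known members; other members are given by counts and ranges. The members and lists were chosen with earlier results of these data known. The procedure was tested on simulated data. The labels do not say what a replicate number shares, and the numbers were not used as pairs. Alternatives were quantile normalization, median centring, leaving out the 25% dimmest probe sets, a replicate block, a trended robust variance, array weights, the median over a gene's probe sets, and leaving out each array. With 2 arrays a group, their number limits the precision.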

Additional observations from a re-analysis of the deposited data

How the results depend on the processing

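The 20 called member differences were recomputed under up to 19 alternatives, which gave 378 values. All 378 kept their direction, 284 kept their side of the threshold and 94 lost it, 82 of these with 1 array left out. The number of the 31 genes called was 1 from 0 to 6 hpa in controls, and became 0 with median centring, 0 with the replicate block and 2 with array weights, and 0 to 1 with 1 array left out. From 0 hpa to 7 dpa in controls it was 3, and became 5 with the trended robust variance, 5 with array weights and 1 to 5 with 1 array left out. From 6 hpa to 7 dpa in controls it was 6, and 3 to 6 with 1 array left out. In TCDD hearts it was 0 from 0 to 6 hpa, and differed from 0 only without TCDD 6 hpa replicate 2, which left the array that stood apart. From 0 hpa to 7 dpa it was 4, became 2 with median centring, and 1 to 5 with 1 array left out. From 6 hpa to 7 dpa it was 6, became 3 with array weights, and moved in both directions with 1 array left out. Between treatments it was 0 at 6 hpa and 0 at 7 dpa. At 6 hpa it differed from 0 only without TCDD 6 hpa replicate 2. At 7 dpa it and the count for the interaction differed from 0 only without TCDD 7 dpa replicate 2. The replicate block left 4 genes called from 0 hpa to 7 dpa in TCDD hearts, of which 3 were shared with the fit without it (col17a1b lost, col18a1a gained). The differences between replicates 1 and 2 correlated over 0.1 in 8 of 15 pairs of groups (r from −0.38 to 0.56), so the rule for pairing, every pair over 0.1, was not met. Between control and TCDD of the same time r was 0.476 at 0 hpa, −0.135 at 6 hpa and 0.563 at 7 dpa. The 6 hpa value includes the array that stood apart. At 7 dpa DapX averaged 5.69 and 5.48 on replicates 1, control first, and 4.59 and 4.58 on replicates 2. A replicate effect that differs between times was not fitted. Replicate 1 also had the larger 3′ minus 5′ actin difference in 6 of 6 groups, and the block ended 2 calls (lamb1a from 0 to 6 hpa in controls, adjusted p = 0.0533, and col17a1b from 0 hpa to 7 dpa in TCDD hearts, adjusted p = 0.0513). Leaving out the 25% dimmest probe sets removed 10 of the 31 genes, itga6b among them. Where an array outside a comparison changed a call, the shared estimate of spread was refitted without it.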
